A study of Mus musculus with 2 samples.

Results

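Vegfa, the gene of vascular endothelial growth factor A, was followed across the immune cell types of mouse tumours. It is 1 of 32245 gene symbols in 2 single-cell RNA libraries, and it was chosen by its measured levels in these libraries, because it was higher in NK, CD4 T and B cells of 1 library while other genes of the oxygen response were lower. The differences between the libraries in those cells are therefore a description and support nothing.

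The libraries hold live white blood cells, sorted by the surface protein CD45 from subcutaneous KP tumours taken from mice on day 14 after inoculation. One carries the genotype label WT and is called Tdg_WT, and the other carries the label Tdg KO and is called Tdg_KO. The labels do not say whether the tumour cells, the host or both carry the genotype, how many animals were pooled, or how the allele was made, and all cells come from tumour-bearing mice. Tdg encodes thymine DNA glycosylase, a repair enzyme that also acts in DNA demethylation. Its level was 25.1 CPM (UMIs scaled to a total of 1000000) in Tdg_WT and 26.5 CPM in Tdg_KO, a ratio of 1.06 (95% interval 0.974 to 1.15). Counts of RNA 3′ ends do not check a deletion elsewhere in the gene, so the library labelled Tdg_KO is named by its label only.

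With 1 library per group no test between the libraries was possible, and no value below can be set against a spread between animals. A UMI (unique molecular identifier) counts 1 captured RNA molecule. The libraries held 39819010 UMIs in 5604 barcodes and 52586319 UMIs in 5896 barcodes, of which 5504 and 5693 were kept as cells. They shared 8 barcode sequences. Intervals are exact 95% intervals and cover counting error only.

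VEGFA is secreted and acts on endothelial cells, mainly through the receptor KDR (VEGFR2), to make vessels grow and leak. Its transcription is a classic target of the hypoxia-inducible factors (HIF), which also switch on glycolytic enzymes, and its mRNA is short-lived and controlled by proteins that bind its 3′ end. In tumours it is made by cancer cells, macrophages, monocytes and neutrophils, and tumour NK cells can make it as well.

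Vegfa (ENSMUSG00000023951) is a protein-coding gene on the minus strand of mouse chromosome 17, from 46016993 to 46032369 in build mm10 (GENCODE vM21). GENCODE lists 13 transcripts, of which 8 are coding. The 3′ libraries count the end of the RNA and the deposited counts are summed per gene, so these isoforms could not be told apart. The 250 bases upstream of the RefSeq start (GRCm38.p6, chr17:46032378-46032627, minus strand) are shown because Vegfa is set below against other HIF targets. Capitals mark GGGCGG, the core of a GC box, to which the factor SP1 binds.

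Vegfa: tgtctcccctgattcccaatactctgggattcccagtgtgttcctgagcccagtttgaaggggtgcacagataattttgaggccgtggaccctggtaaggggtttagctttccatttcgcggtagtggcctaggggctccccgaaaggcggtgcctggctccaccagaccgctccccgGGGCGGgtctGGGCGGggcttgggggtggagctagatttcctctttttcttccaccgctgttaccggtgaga

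GGGCGG occurred 2 times in this window, counting both strands, and in 32.7% of 32851 RefSeq windows of the same length. The HIF cores ACGTG and GCGTG, also on both strands, occurred 0 times in it, which says only that these letters are not in this window. ACGTG was found in 16.6% of all windows and GCGTG in 28.2%. Counted by gene, with a match in any window of the gene, they were found in 18.5% and 30.9% of 27025 genes. Counted the same way, of the 38 genes in a list of HIF targets and glycolytic enzymes that had a window, 22 held ACGTG and 28 held GCGTG. Ldha, Pgam1 and Slc2a1 were among them.

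Vegfa UMIs were concentrated in NK cells, the innate lymphocytes that kill without a T cell receptor. The kept cells held 4218 Vegfa UMIs in Tdg_WT and 6760 in Tdg_KO, and the cells called NK-like from their markers held 48.9% and 47.2% of them while making up 15.4% and 17.4% of the cells. Their level was 368 CPM (352 to 384) in 846 Tdg_WT cells and 453 CPM (438 to 469) in 992 Tdg_KO cells. The ratio was 1.23 (1.17 to 1.30). Of 8940 genes with at least 50 UMIs in NK-like cells, 16.2% had a higher ratio than Vegfa and 83.8% a lower ratio.

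The levels in the other classes spanned a wide range. In Tdg_WT the order from the top was epithelial-like, NK-like, monocyte-like at 304 CPM, basophil-like at 166 CPM, neutrophil-like at 151 CPM and cDC2-like at 149 CPM. The intervals of the last 3 overlapped, so their order is not resolved. T-like, pDC-like and B-like cells lay at the bottom, with CD4 T-like cells at 3.21 CPM (1.71 to 5.49), CD8 T-like at 8.84 CPM, gamma-delta T-like at 9.28 CPM, naive T-like at 10.0 CPM, pDC-like at 10.9 CPM (2.98 to 28.0, from 25 cells) and B-like at 19.2 CPM. The intervals of CD8 T-like, gamma-delta T-like, naive T-like and pDC-like cells overlapped one another. The cDC1-like cells stood at 30.6 CPM. Treg-like cells (regulatory T cells) stood at 34.5 CPM and macrophage-like cells at 52.7 CPM.

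In Tdg_KO NK-like cells had the highest level, followed by neutrophil-like cells at 206 CPM (177 to 239). Basophil-like cells at 144 CPM, epithelial-like cells at 139 CPM and monocyte-like cells at 138 CPM came next, with overlapping intervals. The lowest were cDC1-like cells at 6.23 CPM and gamma-delta T-like cells at 9.89 CPM. The epithelial-like value in Tdg_WT, 571 CPM, came from 19 cells, of which 1 held 128 of the 150 UMIs. These cells were led by Clu and the keratin genes Krt8 and Krt18, in a sort for CD45.

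**Figure D1:**
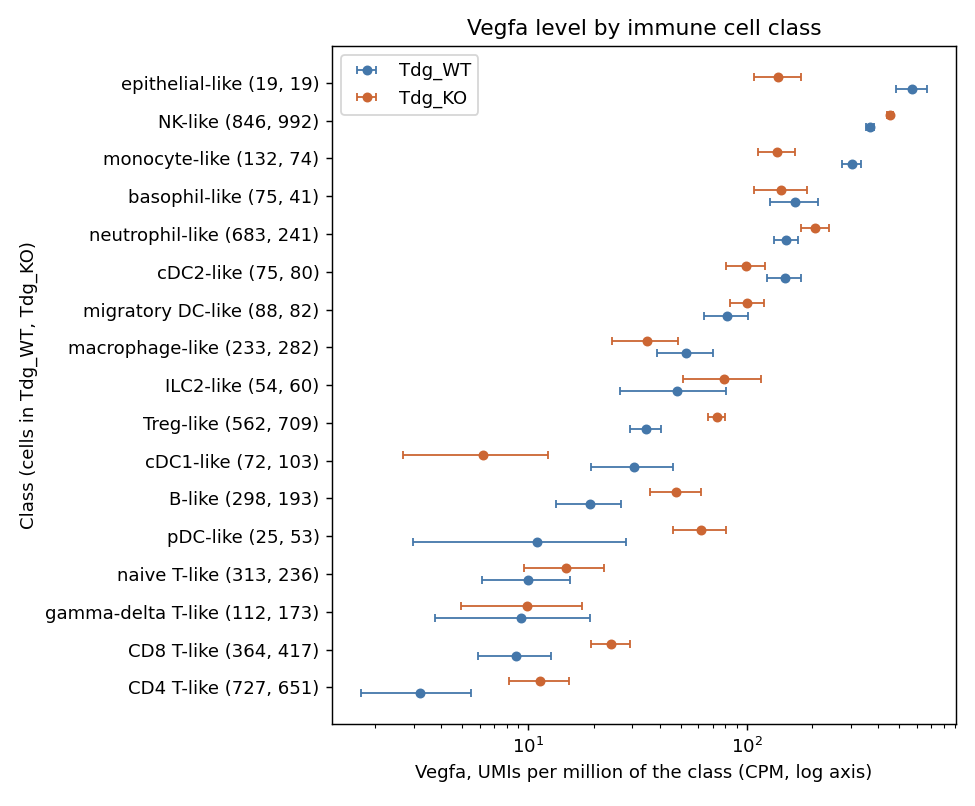
Vegfa level (horizontal log axis, CPM of the class total) in 17 marker-defined classes, with cell numbers in Tdg_WT and Tdg_KO beside each name. Points are the sums of 1 library and bars are exact Poisson 95% intervals, which cover counting error only. NK-like cells stand at 368 and 453 CPM, and CD4 T-like cells at 3.21 and 11.3 CPM.

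The Vegfa RNA of NK-like cells was spread over most barcodes. At least 1 UMI was found in 534 of 846 barcodes, 63.1% (59.8 to 66.4, Clopper-Pearson), in Tdg_WT and in 712 of 992, 71.8% (68.9 to 74.6), in Tdg_KO, at median depths of 5476 and 5971 UMIs. For comparison, 1.65% of CD4 T-like barcodes in Tdg_WT and 3.69% in Tdg_KO had a UMI, at median depths of 5163 and 5255 UMIs. The barcode with the most Vegfa held 33 UMIs in Tdg_WT and 21 in Tdg_KO, which was 1.60% and 0.658% of the class's Vegfa.

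The difference between the libraries ran through the whole distribution. The share of barcodes with 5 or more Vegfa UMIs was 19.5% in Tdg_WT and 28.1% in Tdg_KO, and the share with 10 or more was 3.90% and 6.85%. After each cell was thinned to 2000 UMIs, which left out 24 and 15 shallower cells, 43.7% and 49.8% of cells had a UMI and the ratio of levels was 1.19 (1.08 to 1.32). At that depth the variance over the mean was 1.93 and 1.88, where equal cells with counting error alone would give 1, and 55.9% and 62.3% of cells would then have had a UMI. Vegfa thus varied between NK-like barcodes beyond counting error in both libraries.

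**Figure D2:**
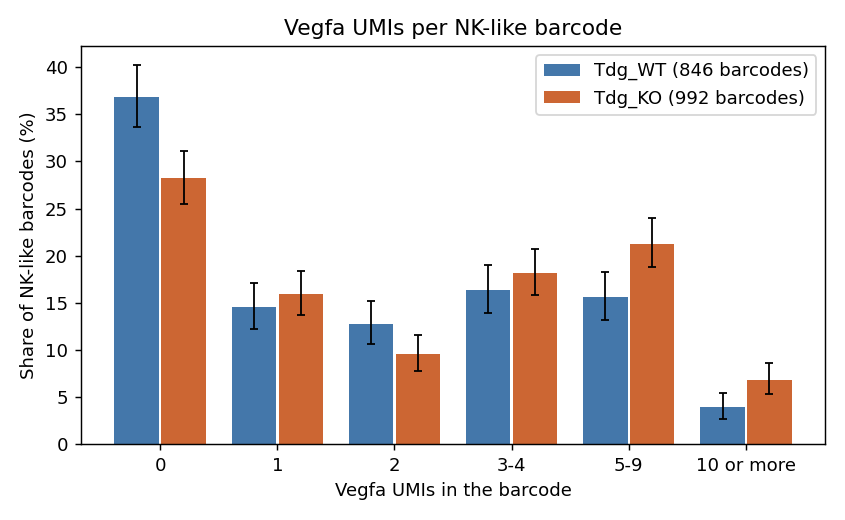
Share of NK-like barcodes (vertical axis, percent) by their number of Vegfa UMIs (horizontal axis) in Tdg_WT (846 barcodes) and Tdg_KO (992 barcodes), with exact binomial 95% intervals as bars. Tdg_KO has fewer barcodes without a UMI and more with 5 to 9 and with 10 or more.

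Both NK-like clusters held Vegfa, and both were higher in Tdg_KO. The clusters were drawn without Vegfa and without the HIF lists. The larger one, led by Gzma, Klra4 and Klra8 (a granzyme and 2 Ly49 receptors of circulating NK cells), had 405 CPM in 566 cells and 506 CPM in 695 cells, a ratio of 1.25 (1.16 to 1.34). The smaller one, led by Gzmc, Klrb1b and Ncr1, where Gzmc marks NK cells that resemble tissue-resident innate lymphoid cells, had 323 CPM in 280 cells and 383 CPM in 297 cells, a ratio of 1.19 (1.08 to 1.30). With the share of each cluster held fixed the NK-like ratio was 1.22.

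Within NK-like cells the barcodes rich in Vegfa had less RNA of the tissue-resident type. At 2000 UMIs per cell, 11 genes of type 1 innate lymphoid cells summed to 2906 CPM in the 463 Tdg_WT barcodes with 0 Vegfa UMIs, to 1807 CPM in the 290 with 1 or 2, and to 1710 CPM in the 69 with 3 or more. In Tdg_KO the sums were 2402 CPM in 490 barcodes, 1687 CPM in 363 and 1117 CPM in 124. Gzmc, a granzyme, accounted for much of this, with 1377, 755 and 543 CPM in Tdg_WT and 1014, 577 and 230 CPM in Tdg_KO. The 11 genes of circulating-type NK cells summed to 2079, 2253 and 2572 CPM in Tdg_WT and to 2277, 2306 and 2254 CPM in Tdg_KO, so their order was not shared by the libraries. Eomes, a transcription factor of circulating NK cells and 1 of the 11, was singled out after its values were seen and had 300, 450 and 435 CPM in Tdg_WT and 302, 368 and 407 CPM in Tdg_KO. Spp1, which encodes osteopontin, stood at 136, 20.7 and 7.25 CPM in Tdg_WT and at 149, 17.9 and 16.1 CPM in Tdg_KO, from 1 and 4 UMIs in the bins richest in Vegfa.

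The type 1 innate lymphoid sum was also taken inside each NK-like cluster. In the Gzmc cluster the type 1 innate lymphoid sum was 5966, 3828 and 3545 CPM in Tdg_WT and 5213, 3524 and 2534 CPM in Tdg_KO, over the same 3 bins of Vegfa UMIs. In the Gzma cluster it was 1243, 853 and 851 CPM in Tdg_WT, level between the upper 2 bins, and 988, 950 and 684 CPM in Tdg_KO. The 3 bins held 163, 93 and 22 Gzmc cluster barcodes in Tdg_WT and 164, 104 and 29 in Tdg_KO. For the Gzma cluster they held 300, 197 and 47, and 326, 259 and 95. Before thinning, the Gzmc cluster's bins had medians of 7971, 8110 and 7714 UMIs in Tdg_WT. In Tdg_KO these were 9546, 9743.5 and 5869 UMIs, so the bin richest in Vegfa also differed in depth. Barcodes are not replicates, and these are descriptions of 2 libraries.

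The summed HIF targets had no order across all 3 bins that both libraries shared. The 42 HIF target and glycolytic enzyme genes summed to 3905, 3722 and 3928 CPM across the 3 bins in Tdg_WT and to 3568, 3545 and 3153 CPM in Tdg_KO. The 25 HIF targets that are not glycolytic enzymes summed to 1165, 1253 and 1428 CPM in Tdg_WT and to 1262, 1292 and 1117 CPM in Tdg_KO. The 17 glycolytic enzyme genes summed to 2740, 2469 and 2500 CPM and to 2306, 2253 and 2036 CPM, highest at 0 Vegfa UMIs in both libraries. Inside the Gzma cluster the 42 genes summed to 3143, 2893 and 2968 CPM in Tdg_WT and to 2919, 2956 and 2800 CPM in Tdg_KO. Inside the Gzmc cluster they summed to 5307, 5478 and 5977 CPM and to 4860, 5014 and 4310 CPM. Hilpda, a HIF target that coats lipid droplets, had 118, 138 and 145 CPM in Tdg_WT and 192, 220 and 149 CPM in Tdg_KO.

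Between the libraries, too, the HIF genes of NK-like cells did not share Vegfa's direction as a group, which is part of why Vegfa was chosen. Genes were counted as higher or lower from a 1.5-fold ratio on, among genes with at least 50 UMIs. Of 35 HIF and glycolytic genes that passed this minimum in NK-like cells, 0 were lower and 0 higher by that fold, where 1.45% of all 8940 genes were lower and 3.76% higher. Of the 35, 23 had a ratio under 1, and the median log2 ratio was -0.11, against 0.07 for all genes.

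Single members pointed both ways. Gapdh and Ldha, which encode glycolytic enzymes, and Rora, a nuclear receptor gene, were the most counted, with ratios of 0.801 (0.770 to 0.833), 0.908 (0.859 to 0.961) and 1.02 (0.958 to 1.09). The lowest ratios were those of Ankrd37, a HIF target just short of the 1.5-fold limit at 0.667 (interval up to 1.10) from 37 and 31 UMIs, and of the glycolytic enzyme gene Eno1, with 292 CPM in Tdg_WT and 198 CPM in Tdg_KO, a ratio of 0.680 (0.633 to 0.731). Hilpda and Hk2 (hexokinase 2) had the highest ratios, 1.38 (1.27 to 1.49) and 1.30 (1.07 to 1.58), and were the 2 members above Vegfa. Hif1a itself, the oxygen-regulated subunit of HIF, had 190 CPM and 180 CPM, a ratio of 0.947 (0.872 to 1.03). Of 9 measured genes of the oxygen-sensing machinery 0 passed 1.5-fold in either direction.

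Of 13 measured other genes that act on Vegfa transcription or mRNA stability 0 passed 1.5-fold in either direction in NK-like cells, where 3.76% of all genes were higher and 1.45% lower. Of the 13, 12 had a ratio above 1, and the median log2 ratio was 0.16, against 0.07 for all genes. Zfp36l2, Jun and Stat3 had the most UMIs, with ratios of 1.12, 1.09 and 1.13. Zfp36, which encodes tristetraprolin, a protein that speeds the decay of AU-rich mRNA such as that of Vegfa, had 285 CPM in Tdg_WT and 359 CPM in Tdg_KO, a ratio of 1.26 (1.18 to 1.34). Crem, with the next most extreme ratio, had 344 and 416 CPM, a ratio of 1.21 (1.14 to 1.28).

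**Figure D3:**
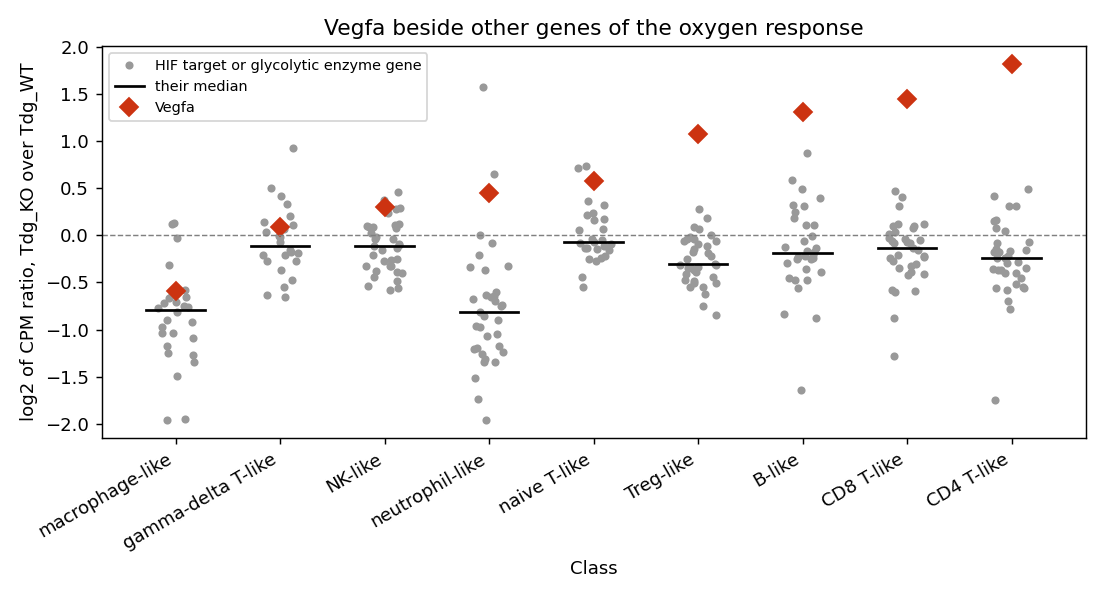
Log2 ratio of CPM, Tdg_KO over Tdg_WT, of Vegfa (diamond) and of each HIF target or glycolytic enzyme gene with at least 50 UMIs (grey points, line at their median), for 9 classes, each of 100 or more cells per library. Vegfa lies above the line in all 9 classes, with -0.60 against a median of -0.80 in macrophage-like cells and 0.30 against -0.11 in NK-like cells. In gamma-delta T-like, naive T-like and macrophage-like cells Vegfa's counting interval included that median. Vegfa itself fell short of the 50 UMIs in gamma-delta T-like cells (7 and 11) and naive T-like cells (20 and 24). Vegfa was chosen for this contrast.

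Among the other VEGF ligands only Vegfb and Vegfc passed the 50-UMI minimum in NK-like cells. Vegfc, a ligand of lymphatic vessels, had 14.8 CPM from 83 UMIs in Tdg_WT and 21.7 CPM from 153 UMIs in Tdg_KO, a ratio of 1.47 (1.12 to 1.94). Vegfb had 9.27 and 7.52 CPM, a ratio of 0.811 (0.543 to 1.21). Pgf was found with 2 and 3 UMIs and Vegfd with 0 and 4.

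The signalling receptors were almost unread in NK-like cells, with 0 UMIs of Kdr and Flt4 in both libraries and 0 and 1 UMI of Flt1. The co-receptor Nrp1 was the receptor gene that passed the minimum there, with 18.4 and 20.0 CPM, a ratio of 1.09 (0.839 to 1.42). Nrp2, the other co-receptor, had 1 and 7 UMIs. Nrp1 was more abundant on CD4 T-like cells, at 70.6 CPM in Tdg_WT and 100.4 CPM in Tdg_KO, a ratio of 1.42 (1.22 to 1.66), and on Treg-like cells, at 49.8 and 76.9 CPM, a ratio of 1.54 (1.32 to 1.81).

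Of 12 measured other angiogenic factors in NK-like cells 2 were at least 1.5-fold higher in Tdg_KO, where 3.76% of all genes were, and 1 was lower, where 1.45% were. Pdgfa, a platelet-derived growth factor, had 20.3 and 41.2 CPM, a ratio of 2.03 (1.63 to 2.54), and Areg (amphiregulin) had 14.4 and 21.9 CPM, a ratio of 1.51 (1.15 to 2.01). Csf2, which encodes GM-CSF, had 27.5 and 7.81 CPM, a ratio of 0.284 (0.205 to 0.389). Tgfb1, Spp1 and Pdgfb, with the most UMIs of the list, had ratios of 1.13 (1.07 to 1.19), 0.785 (0.705 to 0.873) and 1.04 (0.860 to 1.27).

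In CD4 T-like, CD8 T-like, B-like and Treg-like cells the ratios were larger than in NK-like cells, on far fewer molecules. CD4 T-like cells had 13 Vegfa UMIs in 727 Tdg_WT cells and 42 in 651 Tdg_KO cells, 3.21 and 11.3 CPM, a ratio of 3.53 (1.86 to 7.17). CD8 T-like cells had 28 UMIs in 364 cells and 95 in 417, 8.84 and 24.0 CPM, a ratio of 2.72 (1.77 to 4.31). B-like cells had 35 UMIs in 298 cells and 57 in 193, 19.2 and 47.6 CPM, a ratio of 2.48 (1.60 to 3.89).

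Treg-like cells had 158 UMIs in 562 cells and 533 in 709, 34.5 and 72.9 CPM, a ratio of 2.11 (1.76 to 2.54). With clusters drawn at Leiden resolution 0.5 in place of 1, the Treg-like ratio was 0.589 (0.376 to 0.917). The interval included 1 in naive T-like cells, with a ratio of 1.49 (0.787 to 2.84), and in gamma-delta T-like cells, with 1.07 (0.377 to 3.24).

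Barcodes of these classes were sorted by how many of 5 NK marker genes (Ncr1, Klra4, Klra8, Klre1 and Eomes) had a UMI. In Tdg_KO B-like cells, 12 of 193 barcodes held 2 or more NK markers, and they carried 39 of the 57 Vegfa UMIs at a median depth of 15925 UMIs, against 3806 UMIs in the 173 barcodes without a marker. In Tdg_WT B-like cells 7 of 298 barcodes carried 9 of the 35. In Treg-like cells 30 of 562 Tdg_WT barcodes carried 76 of the 158 UMIs, and 74 of 709 Tdg_KO barcodes carried 369 of the 533. In CD8 T-like cells 15 of 364 carried 13 of 28 in Tdg_WT, and 40 of 417 carried 41 of 95 in Tdg_KO. CD4 T-like cells differed from these, since 12 of their 13 UMIs in Tdg_WT and 23 of 42 in Tdg_KO were in barcodes without an NK marker, and barcodes with 2 or more carried 0 and 11.

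Counted before thinning, such barcodes were more frequent in Tdg_KO. They made up 2.35% of B-like cells in Tdg_WT and 6.22% in Tdg_KO, 5.34% and 10.4% of Treg-like cells, 4.12% and 9.59% of CD8 T-like cells, and 0.275% and 1.38% of CD4 T-like cells. Klre1 is also read in CD8 T-like cells, at 16.6% and 15.9% of its NK-like level, so a single NK marker does not set these barcodes apart there. After thinning to 2000 UMIs, barcodes without a Vegfa UMI were checked for 2 or more NK lineage markers. The shares in Tdg_WT and Tdg_KO were 0.712% and 0.562% in B-like and 0.845% and 1% in CD8 T-like cells. They were 0.591% and 2.94% in Treg-like and 0% and 0.325% in CD4 T-like cells. Of B-like barcodes with a Vegfa UMI, 0 of 8 and 0 of 11 held 2 markers. Of Treg-like ones, 1 of 18 and 7 of 44 did. Thinning removes marker UMIs too, so these few B-like barcodes cannot show whether the excess in Tdg_KO holds at this depth. At least 1 NK marker was found in 0 of the 8 and 2 of the 11 B-like barcodes with a Vegfa UMI. Among B-like barcodes without one the shares were 3.20% and 4.49%.

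**Figure D4:**
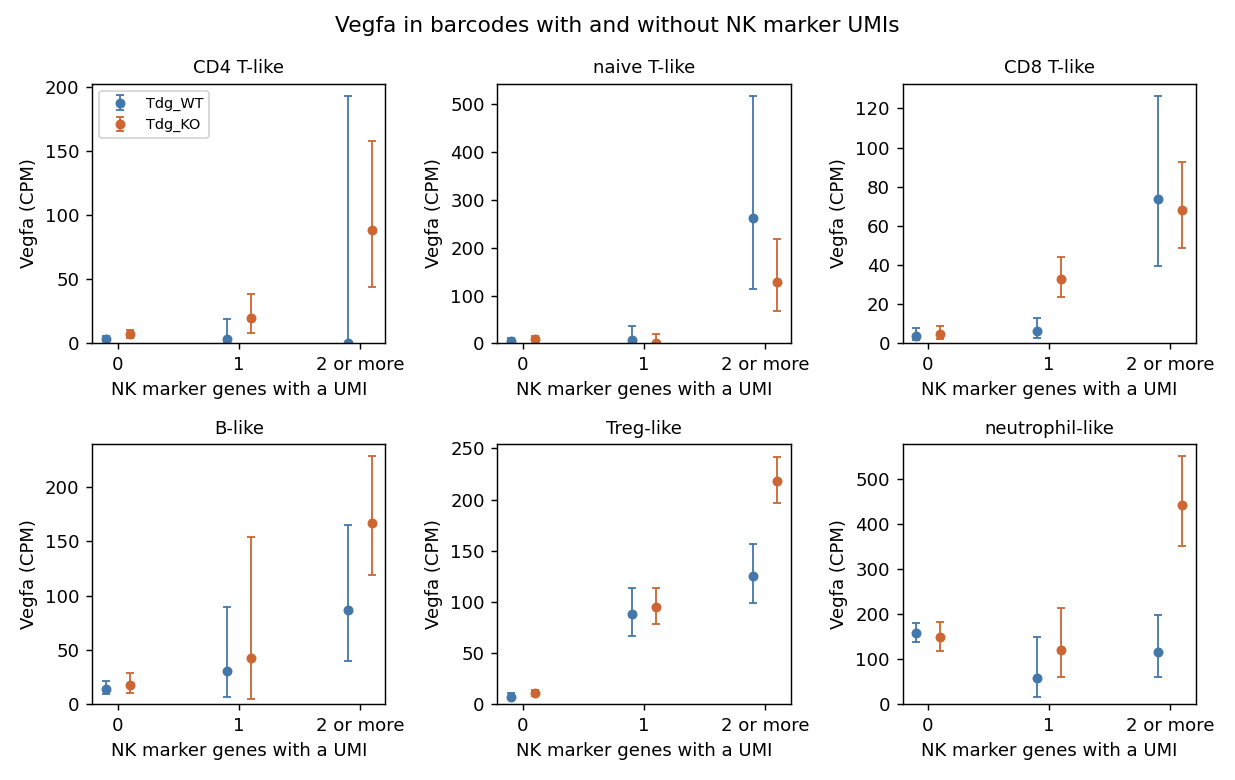
Vegfa level (vertical axes, CPM, each panel on its own scale) in barcodes with 0, 1 or at least 2 of 5 NK marker genes, for 6 classes and both libraries, with exact Poisson 95% intervals. In Treg-like cells it is 7.26 and 10.5 CPM without a marker and 125 and 219 CPM with 2 or more.

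Without any barcode that held an NK marker UMI the lymphocyte ratios were closer to 1. The B-like ratio was then 1.23 (0.608 to 2.43), from 14.2 and 17.5 CPM. The CD8 T-like ratio was 1.26 (0.432 to 3.89), from 3.96 and 4.98 CPM, and the Treg-like ratio 1.45 (0.865 to 2.48), from 7.26 and 10.5 CPM. The CD4 T-like ratio was 2.26 (1.08 to 4.97), resting on 12 and 23 UMIs. Whether such barcodes hold more than 1 cell was not tested. Scrublet, a doublet caller, marked 1 and 0 barcodes and so did not work here.

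**Figure D5:**
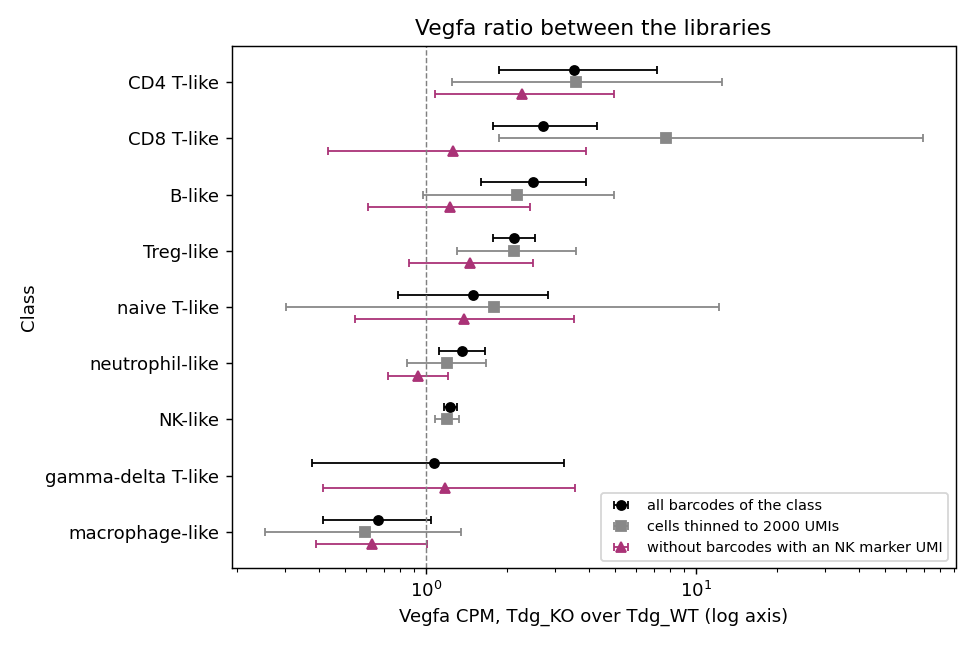
Ratio of Vegfa CPM, Tdg_KO over Tdg_WT (horizontal log axis), in 9 classes with all barcodes, with cells thinned to 2000 UMIs, and without barcodes that hold an NK marker UMI; bars are exact 95% counting intervals and the dashed line marks 1. Thinned values without a finite interval are not drawn, and the NK-like class has no value without its own markers. The B-like ratio is 2.48, 2.17 and 1.23 under the 3 settings.

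The level of Vegfa in each class was set beside those of the 5 NK markers, each as a share of its NK-like level. In CD4 T-like cells Vegfa was at 0.873% of its NK-like level in Tdg_WT and 2.50% in Tdg_KO, and the 5 markers ranged from 0 to 2.74% and from 0.977% to 3.52%. In CD8 T-like and naive T-like cells Vegfa also lay inside the markers' range in both libraries, where Klre1 set the upper end in CD8 T-like cells. The part of NK RNA in these levels was not tested. In B-like cells Vegfa was at 5.22% in Tdg_WT, inside a range of 0.737% to 7.09%, and at 10.5% (7.96 to 13.6) in Tdg_KO, above the highest marker at 7.38% (4.73 to 11.0).

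Treg-like cells exceeded the markers in both libraries, with 9.39% against at most 6.47% in Tdg_WT and 16.1% against at most 12.6% in Tdg_KO. Most of that Vegfa was in 1 of their 2 clusters. The cluster led by Il2, Foxp3 and Il2ra, of 99 and 219 cells at a median depth of 16382 UMIs, held 132 of the 158 and 506 of the 533 UMIs, at 78.7 and 125 CPM. The other, led by Foxp3, Klrg1 and Il2ra, of 463 and 490 cells at a median of 5220 UMIs, had 8.98 and 8.27 CPM, a ratio of 0.921 (0.517 to 1.64).

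Neutrophil-like cells carried Vegfa also in barcodes without an NK marker UMI. Over the whole class Vegfa was at 41.1% of its NK-like level in Tdg_WT and 45.5% in Tdg_KO. The 5 NK markers ranged from 1.30% to 7.62% and from 5.42% to 15.4% of theirs. Neutrophil-like barcodes without an NK marker held 232 of 249 Vegfa UMIs in Tdg_WT and 89 of 180 in Tdg_KO, at 158 CPM (139 to 180) and 148 CPM (119 to 183). Over all neutrophil-like barcodes 30.7% of 4759 genes had a higher ratio than Vegfa, whose ratio was 1.36 (1.12 to 1.66). Without barcodes bearing NK markers it was 0.937 (0.725 to 1.20), since 9 barcodes at a median of 16728 UMIs held 80 of the Tdg_KO UMIs. The cluster led by Slc7a11, Il1a and Il1f9 held 190 and 175 of the UMIs, at 154 and 221 CPM, and the shallower cluster led by Cstdc4, S100a9 and S100a8 held 59 and 5, at 143 and 60.5 CPM.

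Macrophage-like cells had 48 Vegfa UMIs in 233 cells and 35 in 282, 52.7 and 34.9 CPM, a ratio of 0.662 (0.416 to 1.04). When the clusters of barcodes with mixed lineage markers were named too, the class held 334 and 527 cells and the ratio was 1.71 (1.42 to 2.08). NK markers were at 0 to 0.226% of their NK-like level in Tdg_WT and at 0 to 0.722% in Tdg_KO, while Vegfa was at 14.3% and 7.70%. Of their 2 clusters, the one led by Arg1, Spp1 and Mmp12 had 68.6 and 107 CPM, and the one led by the apolipoprotein gene Apoe, Ccl8 and C1qc had 36.0 and 16.3 CPM.

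In these 2 phagocyte classes the HIF genes were lower in Tdg_KO in far larger number than in lymphocytes. Of 28 measured in macrophage-like cells 22 were at least 1.5-fold lower, where 5.9% of 3201 genes were, 0 were higher, where 16.9% were, and their median log2 ratio was -0.80 against 0.11 for all genes. Of 35 in neutrophil-like cells 26 were lower, where 7% of 4759 genes were, with a median of -0.81 against 0.18, and 2 were higher, where 22.4% were. Bnip3, a HIF target of mitochondrial clearance, had 262 and 67.8 CPM in macrophage-like cells, a ratio of 0.258 (0.194 to 0.339), and 222 and 57.3 CPM in neutrophil-like cells, a ratio of 0.258 (0.188 to 0.347). Egln3, an oxygen-sensing hydroxylase, had a ratio of 0.257 (0.146 to 0.434) in macrophage-like cells, and Gapdh a ratio of 0.591 there and 0.642 in neutrophil-like cells. The cluster mix of both classes shifted between the libraries. The Arg1 cluster held 115 and 59 macrophage-like cells and the Apoe cluster 118 and 223, and the Slc7a11 cluster held 354 and 155 neutrophil-like cells and the Cstdc4 cluster 329 and 86. The part of this shift in the HIF counts was not tested.

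The lymphocyte classes had few such genes. In CD4 T-like cells 3 of 35 were lower, where 1.96% of 7914 genes were, and 0 were higher (background 4.36%), with a median of -0.24. In CD8 T-like cells it was 4 of 35 (1.78% of 7924 genes) and 0 higher (4.61%), with a median of -0.14, and in Treg-like cells 3 of 36 (2.05% of 9079 genes) and 0 higher (4.55%), with a median of -0.31. In B-like cells 3 of 32 were lower and 2 higher, where 3.52% and 5.12% of 5738 genes were, and in gamma-delta T-like cells 2 of 24 were lower and 1 higher, where 2.6% and 8.11% of 4354 genes were. Naive T-like cells had 0 lower and 2 higher of 26, where 2.67% and 5.39% of 5435 genes were.

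Across the 9 classes the genes with a pattern most like that of Vegfa were not HIF targets. Among 10377 genes, ranked by the lower of the 2 libraries' Pearson r of log2(CPM + 1), the closest were Arap3 (lower r 0.888), Eef2k (0.878), Tiam2 (0.859), Kcnip3 (0.854), Agpat2 (0.841), Grk5 (0.839), Rbpms (0.834) and Gas7 (0.823). Of 38 HIF and glycolytic genes in that ranking Slc2a1, a glucose transporter, came closest at 0.547, rank 243, and their median was 0.116. On either side of that median, Higd1a at 0.134 ranked 2102 and Egln3 at 0.0981 ranked 2383. Most of the list thus ranked above the middle of the 10377 genes, though below the closest ones. Arap3, which encodes a GTPase-activating protein, had 22.3 and 20.7 CPM in NK-like cells, 26.1 and 32.1 CPM in neutrophil-like cells and 0.494 and 1.35 CPM in CD4 T-like cells. The classes of 1 library share its depth and its free RNA, and with 9 points the values are a description.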

How the data were processed

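Single-cell RNA was measured in 2 libraries, 1 per group. Raw UMI counts by gene and barcode were deposited, made with Cell Ranger 6.0.1 per the file headers. The submitters' processing notes also name Seurat and build mm10, with no role. The barcodes were already called cells, so free RNA was not measured. Entries sharing a symbol (78 of 32285) were summed. The filter kept barcodes with 200 genes or more and no more than 10% mitochondrial UMIs, 98.2% and 96.6% of them.

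Clustering of the pooled libraries used scanpy 1.11.5 with Python 3.11.15 (2000 variable genes, 30 components, 15 neighbours, Leiden resolution 1), and lymphoid and phagocyte cells were clustered again apart. Vegfa, the other VEGF genes and the HIF and glycolytic lists were kept out of the variable genes. Of 38 clusters 27 were named X-like from 22 marker sets, in 17 classes. Clusters led by another type's markers, proliferation or interferon genes, or with at least 50% of barcodes mixing T cell and phagocyte or B cell genes, stayed unnamed, 826 and 1287 cells. Scrublet ran at an expected 5% and removed nothing.

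For each class of a library, a gene's UMIs were divided by all UMIs of the class (CPM). Ratios are given for 9 classes, each of 100 or more cells per library. Levels have exact Poisson, shares Clopper-Pearson, and ratios exact conditional Poisson 95% intervals. The code was tested on simulated data. The members, lists, markers and alternatives were chosen with earlier results of these data known, and the NK marker split and the omission of a Treg-like cluster were added after seeing these values. The genes named from a list were, for a class described, the 3 most counted and the 2 of most extreme ratio, and every VEGF ligand and receptor. Genes named beyond that rule (Gzmc, Eomes, Spp1, Areg, and Hilpda and Hk2 in NK-like cells) were chosen after their values were seen. So was Hif1a, the only oxygen-sensing gene named in NK-like cells and the most counted of them.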

Additional observations from a re-analysis of the deposited data

Results flagged for a closer look

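Vegfa differed in the opposite direction from NK-like cells in 3 classes of myeloid origin with under 100 cells in a library, and the differences between classes were not tested. Monocyte-like cells had 304 CPM in 132 Tdg_WT cells and 138 CPM in 74 Tdg_KO cells, a ratio of 0.455 (0.363 to 0.566). Dendritic cells of type 2 (cDC2-like) had 149 CPM in 75 cells and 99.4 CPM in 80, a ratio of 0.667 (0.503 to 0.881), and those of type 1 (cDC1-like) had 23 UMIs in 72 cells and 8 in 103, a ratio of 0.204 (0.0788 to 0.472). Without barcodes holding an NK marker UMI the 3 ratios were 0.431, 0.631 and 0.239.

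The monocyte-like value depended on which cells carry the name. With the barcodes that mix monocyte and T cell genes, left unnamed elsewhere, counted as monocyte-like as well, in 218 and 232 cells, the ratio was 0.957 (0.868 to 1.06). At 2000 UMIs per cell the monocyte-like ratio was 0.641 (0.392 to 1.02) and the cDC2-like ratio 0.923 (0.420 to 2.03). The cDC1-like ratio was then 0.174 (0.00353 to 1.76), from 4 and 1 UMIs. Of the 2 cDC1-like clusters, the deeper one, of 25 and 28 cells, had 52.7 and 9.75 CPM. The other, of 47 and 75 cells, had 0 and 3.89 CPM.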

How the results depend on the processing

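No paired analysis was possible because each group is 1 library. The NK-like ratio of Vegfa stayed between 1.18 and 1.27 over its alternatives, and the CD4 T-like ratio between 1.67 and 4.04. Values that moved by more than their counting interval, or that changed side of 1 where the interval excluded 1, were the following, and where no construction shows the cause it was not tested. Thinned to 1000 UMIs per cell, the ratio was 1.67 in CD4 T-like, 1.46 in Treg-like, 3.31 in naive T-like and 0.912 in neutrophil-like cells. Of naive T-like cells, 0.643% of 311 in Tdg_WT and 1.70% of 235 in Tdg_KO then had a Vegfa UMI. Thinned to 2000 UMIs, the CD8 T-like ratio was 7.76, from only 1 Tdg_WT and 13 Tdg_KO barcodes with a Vegfa UMI. Equal weight for each cell gave 1.08 in neutrophil-like cells. Without barcodes holding markers of another lineage it was 1.31 in B-like, 1.38 in Treg-like and 0.912 in neutrophil-like cells, and without the highest Scrublet scores 1.34 in B-like cells. At Leiden resolution 0.5 the Treg-like ratio was 0.589, and without the deep Treg-like cluster 0.921. The gamma-delta T-like ratio, whose interval included 1, ranged from 0.758 to 2.81. With mixed clusters named the macrophage-like ratio was 1.71. Without barcodes holding an NK marker UMI the ratios were 1.23 in B-like, 1.26 in CD8 T-like, 1.45 in Treg-like and 0.937 in neutrophil-like cells.

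Counts of lower HIF and glycolytic genes moved as follows. From 10 UMIs on, where 5.01% to 9.96% of all genes of a class were lower, they were 5 in B-like, 1 in NK-like, 4 in gamma-delta T-like and 5 in naive T-like cells. At 2-fold, which 0.257% to 2.19% of all genes of a class passed, they were 1 in B-like, CD4 T-like and CD8 T-like, 0 in Treg-like and gamma-delta T-like, 10 in macrophage-like and 13 in neutrophil-like cells. Scaled by the median gene (2.06% to 12.9% of all genes) they were 8 in CD4 T-like, 5 in Treg-like, 3 in NK-like and 1 in naive T-like cells. Thinned to 1000 UMIs (2.49% to 9.29%) they were 0 in B-like, 2 in NK-like, 1 in gamma-delta T-like, 12 in macrophage-like, 1 in naive T-like and 14 in neutrophil-like cells. Depth limits the T-like and B-like values. Outside Treg-like cells they rest on 7 to 95 UMIs per library, and on fewer once cells are thinned or barcodes left out. Depth also limits the macrophage-like values, which rest on 48 and 35.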

Other observations

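Unnamed clusters held 17.9% of the Vegfa UMIs in Tdg_WT and 30.5% in Tdg_KO, in 826 of 5504 and 1287 of 5693 cells. Lymphocytes led by the Ly49 genes Klra1 and Klra6 and by Tcrg-C2 had 60.8 CPM in 358 cells and 73.9 CPM in 502, a ratio of 1.22 (1.02 to 1.46). A cluster led by the interferon-induced genes Ifit3, Ifit1 and Cxcl10 had 94.5 CPM in 71 cells and 147 CPM in 90, a ratio of 1.56 (1.15 to 2.15). A cluster led by Gzmc, Mgl2 and Cx3cr1, in which 75.3% of barcodes held genes of both T cells and phagocytes, had 96.3 CPM in 30 cells and 168 CPM in 116, a ratio of 1.75 (1.35 to 2.29).

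Plasmacytoid dendritic-like cells had 4 Vegfa UMIs in 25 Tdg_WT cells and 54 in 53 Tdg_KO cells, of which 1 barcode held 31.5%. Group 2 innate lymphoid-like cells (ILC2-like) had 48.2 and 78.6 CPM, a ratio of 1.63 (0.816 to 3.40), and migratory dendritic-like cells 81.2 and 101 CPM, a ratio of 1.24 (0.924 to 1.68).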
